A study of Mus musculus with 6 samples.

Results

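The levels of 10 sperm genes whose products act when the sperm meets the egg's outer layers were followed in Prss37 knockout testes: Zan, Zp3r, Zpbp, Zpbp2, Mfge8 and B4galt1, assigned to binding of the zona pellucida, Spam1 and Hyal5, assigned to passage through the cumulus, and Crisp2 and Spesp1, further proteins of the sperm head. Their probes were taken by gene name, the genes having been chosen with earlier results of these data known, and all 10 were on the array, among its 27343 gene names and with 14 of its 41174 probes. All 14 were well above background on all 6 arrays and were tested, among 28301 probes tested in all. Total RNA from testes of 3 Prss37 knockout (Prss37-/-) and 3 wild-type mice, all males on C57BL/6 and 6 to 8 weeks old, had been hybridised to single-colour arrays to find genes whose levels differ when this testis protease gene is missing. No transgene or Cre is named in the labels, and the removed part of Prss37 is not given. One label field of the knockout samples names Prss55 in place of Prss37, and the grouping here follows the titles.

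An ovulated egg is wrapped in the zona pellucida, a coat of glycoproteins, and outside it in the cumulus, a layer of cells embedded in hyaluronan. Sperm pass the cumulus with the help of hyaluronidases on their surface, and bind and cross the zona with proteins of the plasma membrane and of the acrosome, the secretory vesicle over the nucleus. In the testis most of these proteins are made in spermatids, while Mfge8 and B4galt1 are also made by many other cells.

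The arrays had 75th percentiles of the processed signal between 1550 and 1707, 69.2% to 71.4% of spots well above background and 0 saturated spots. Replicates 1 and 2 of both genotypes shared slide 1, and both arrays numbered 3 were on slide 2. The Prss37 probe averaged 70992 ± 3155 in knockout arrays against 116129 ± 8265 in wild-type arrays (scaled signal, SD, n = 3), and whether it lies in the removed part is unknown. Of all probes tested, 132 were higher and 161 lower in knockout (limma adjusted p under 0.05), which became 250 and 173 with normexp background correction and 101 and 1343 when arrays were centred on spermatid markers. Signals below were scaled to a common 75th percentile, and log2 differences are knockout minus wild type.

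Among the 10 genes, Zan was higher in knockout testes by 1.30-fold at 1 of its 2 probes (limma adjusted p = 0.049). No other probe passed the test in either direction, and the Zan call was lost in 12 of the 21 other settings given below. Spam1 (1.20-fold) and Zp3r (1.14-fold) missed the threshold, although their 3 knockout values lay above their 3 wild-type values. Mfge8 and Zpbp were separated in the same way with smaller differences. The remaining probes, those of Zpbp2, B4galt1, Hyal5 and Crisp2 and the weaker Zan probe, overlapped between genotypes, and Spesp1 was the only one of the 10 genes whose knockout values all lay below the wild-type values. In bulk testis RNA, a change in the share of cells of a type and a change in RNA per cell cannot be told apart. Of the 14 probes 1 was called higher and 0 lower, while 1.04% of all tested probes were called, 0.466% higher and 0.569% lower. At unadjusted limma p under 0.05, 4 of the 14 were higher and 0 lower, beside 11.1% and 11.4% of all tested probes.

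**Figure D1:**
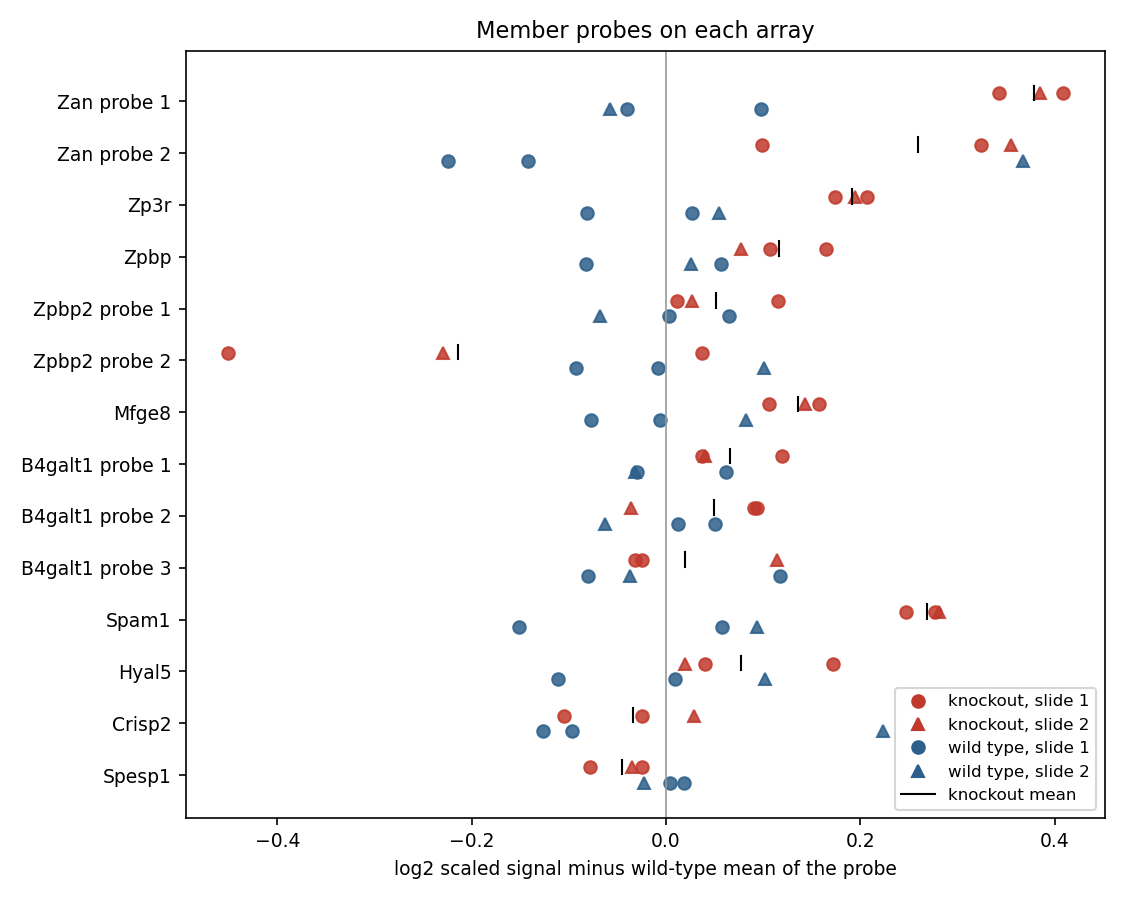
Scaled signal of each of the 14 probes on each array, as the log2 difference from the probe's wild-type mean. Red marks are knockout and blue marks wild-type arrays, with circles for slide 1 and triangles for slide 2, and the black tick is the mean of the 3 knockout arrays. Zan probe 1, Zp3r, Zpbp, Mfge8 and Spam1 have all 3 knockout arrays to the right of the 3 wild-type arrays, and Spesp1 has them to the left.

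Zan encodes zonadhesin, a large acrosomal membrane protein that binds the zona pellucida. It had 2 probes, whose sequences are shown because only 1 of them passed the test. Probe 1 starts at position 16177 of the transcript and maps to chr5:137820293-137822060 (mm9, minus strand), a span longer than the 60-base probe. Probe 2 starts at position 9390 and maps to chr5:137858290-137858349 on the same strand. The first 30 of the 60 bases of probe 1, and probe 2 whole, read 5′ to 3′:
Zan probe 1: agaattctgcacagagcctcaggatatcac
Zan probe 2: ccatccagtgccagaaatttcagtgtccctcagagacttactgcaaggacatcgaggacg

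At Zan probe 1 the scaled signals were 2057, 1965 and 2023 in knockout replicates 1 to 3. They were 1507, 1658 and 1489 in wild-type replicates 1 to 3. The lowest knockout array was thus above the highest wild-type array, and the knockout arrays lay closer together than the wild-type arrays. The means were 2015 ± 46.5 (SD, n = 3) and 1551 ± 92.6 (SD, n = 3). The log2 difference was 0.38 (SE 0.056, 95% interval 0.24 to 0.51), with a limma adjusted p of 0.049, just under the threshold of 0.05. The difference was 0.35 on slide 1 and 0.44 on slide 2.

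At Zan probe 2 the scaled signals were 63.0, 73.7 and 75.3 in knockout and 50.4, 53.3 and 75.9 in wild type. Wild-type replicate 3 was the highest of all 6 arrays at this probe, so the genotypes overlapped. The probe was dim, since the lowest signal well above background was between 29.6 and 35.3 on these arrays. Its log2 difference of 0.26 (SE 0.17, 95% interval -0.15 to 0.67) had a limma adjusted p of 0.41. It was 0.39 on slide 1 and -0.012 on slide 2. Leaving out single arrays gave values from 0.15 (limma adjusted p = 0.71) without wild-type replicate 1 to 0.44 (0.080) without wild-type replicate 3. The interval of probe 2 covers the difference at probe 1, and the response of probe 1 exceeded that of probe 2 by 0.12 (SE 0.23, exact permutation p = 0.80, two-sided, n = 3 per genotype), which became -0.093 without wild-type replicate 3. With 3 arrays against 3 that test cannot give less than 0.10, so it cannot pass a threshold of 0.05 for any pair. It was run on 7 pairs of probes, with adjusted p between 0.70 and 1.

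The call of Zan probe 1 rested on a narrow margin. It was lost in 12 of the 21 other settings, while the log2 difference stayed between 0.26 and 0.43. With an array left out, the limma adjusted p was 0.14, 0.17 and 0.17 without knockout replicate 1, 2 or 3, and 0.15, 0.034 and 0.065 without wild-type replicate 1, 2 or 3. It was 0.073 with the slide as a block. With the mean of both Zan probes the difference was 0.32 (limma adjusted p = 0.094).

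**Figure D2:**
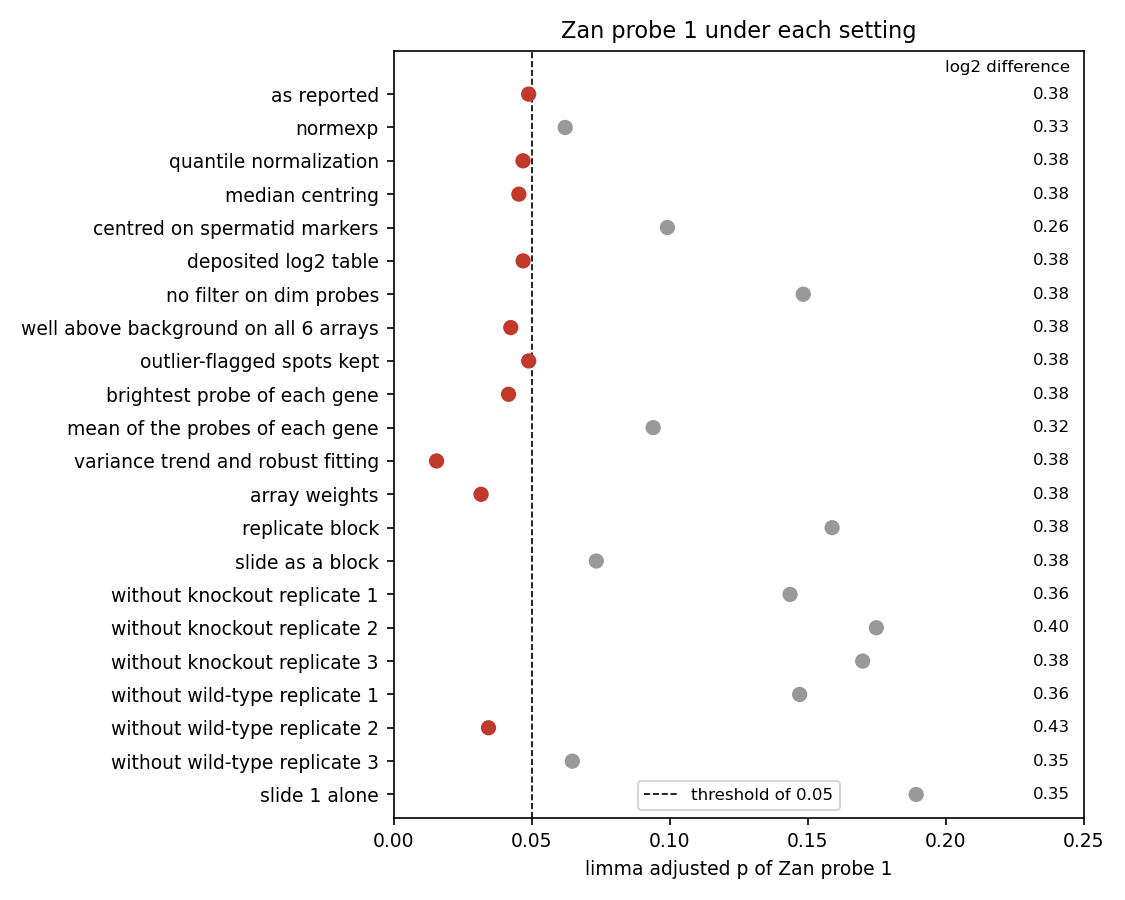
Adjusted p of Zan probe 1 (horizontal axis) in the reported analysis and 21 other settings (rows), with the log2 difference at the right of each row. Red points are under the dashed threshold of 0.05, where the reported value is 0.049, and grey points are above it, up to 0.19 on slide 1 alone.

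Zp3r, also called sp56, is a protein of the acrosomal matrix first described as a sperm receptor for the zona glycoprotein ZP3. Its probe at chr1:132473523-132473582 (mm9) had scaled signals of 8473, 8282 and 8402 in knockout and 6938, 7477 and 7626 in wild type. All knockout values were above all wild-type values, and wild-type replicate 1 was the lowest array. The log2 difference of 0.19 (SE 0.050, 95% interval 0.070 to 0.31) missed the threshold with a limma adjusted p of 0.10. It passed with a variance trend and robust fitting (adjusted p = 0.048).

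Zpbp and Zpbp2 are paralogues whose products bind the zona pellucida from within the acrosome and are needed for the acrosome to form normally. Zpbp, probed at chr11:11315309-11318192 (mm9), had scaled signals of 13447, 12926 and 12658 in knockout and 11330.1, 12480 and 12217 in wild type. The groups did not overlap, but the gap between knockout replicate 3 and wild-type replicate 2 was small. The log2 difference was 0.12 (SE 0.054, 95% interval -0.015 to 0.25, limma adjusted p = 0.27).

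Zpbp2 had a bright probe at chr11:98419809-98419868 and a dim probe at chr11:98413445-98413504 (mm9, plus strand). The dim probe was designed on a cDNA clone (AK011513) and not on the RefSeq transcript. The first 30 bases of each are shown because the probes read different stretches and gave differences of opposite sign:
Zpbp2 probe 1: catttatctctgtgcctccggtgtacgaga
Zpbp2 probe 2: tagtttgtcagtcaagctaacatcctgtaa

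The bright Zpbp2 probe had scaled signals of 116660, 125343 and 117904 in knockout and 121045, 115968 and 110431 in wild type. The groups overlapped, and the log2 difference was 0.051 (95% interval -0.081 to 0.18, limma adjusted p = 0.63). The dim probe had 87.5, 122.7 and 102.0 in knockout and 119.0, 112.1 and 128.3 in wild type. Its difference of -0.21 (SE 0.13, limma adjusted p = 0.38) had the opposite sign, and knockout replicate 2 lay among the wild-type values. It was -0.096 without knockout replicate 1, -0.34 without knockout replicate 2 and -0.094 with normexp background correction. The difference between the 2 probes' responses, 0.27 (SE 0.14), had an exact permutation p of 0.20. Between the paralogues, the response of Zpbp exceeded that of the bright Zpbp2 probe by 0.065 (SE 0.088, exact permutation p = 0.70), and the sign turned without wild-type replicate 1 (-0.0085).

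Mfge8, also known as SED1 or lactadherin, is a secreted protein that binds phosphatidylserine. It coats sperm in the epididymis and marks dying cells for uptake by phagocytes. At chr7:86278689-86278748 (mm9) its scaled signals were 26026, 25108 and 25756 in knockout and 23234, 22121 and 24707 in wild type. The lowest knockout value was 25108 and the highest wild-type value was 24707, in replicate 3. The log2 difference was 0.14 (SE 0.053, 95% interval 0.0055 to 0.27, limma adjusted p = 0.21). Macrophage markers, genes of a cell type that also makes Mfge8, were above 0 in 8 of 8 tested members with a median log2 difference of 0.20. Their summed scaled signal ran from 18967 to 24116 in knockout and from 14917 to 19415 in wild type, so the groups overlapped on this sum. Of Sertoli, Leydig, peritubular and endothelial markers, 4 of 7, 2 of 5, 1 of 5 and 1 of 4 were above 0. The part of any of these cells in the Mfge8 value was not tested.

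B4galt1 is a galactosyltransferase of the Golgi in many cells, a form of which sits on the sperm surface. It had 3 probes, at chr4:40751739-40751798, chr4:40751615-40751648 and chr4:40800729-40800788 (mm9, minus strand). The second of these intervals is shorter than the probe. The log2 differences were 0.066 (95% interval -0.053 to 0.18), 0.049 (-0.089 to 0.19) and 0.019 (-0.16 to 0.19), with limma adjusted p of 0.48, 0.66 and 0.90. The scaled signals ran from 2831 to 2997 in knockout and from 2699 to 2880 in wild type at probe 1. They ran from 1800 to 1970 and from 1767 to 1911 at probe 2, and from 360.6 to 399.3 and from 348.9 to 400.1 at probe 3. The genotypes overlapped at each of the 3 probes, and the 95% intervals reached at most 0.19.

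Spam1 and Hyal5 encode hyaluronidases, enzymes that cut the hyaluronan of the cumulus. Spam1, also called PH-20, is anchored in the sperm membrane by a lipid and also acts in zona binding. The genes are neighbours on chromosome 6, with probes at chr6:24746902-24746961 and chr6:24827910-24841251 (mm9), 80.9 kb apart. They lie 15.7 and 15.6 Mb from the Prss37 probe on the same chromosome. The first 30 of the 60 bases of each probe are shown because the 2 genes are close relatives read by separate probes:
Spam1 probe: aagctatcagagtgtccaaggttgggaatg
Hyal5 probe: gaatggtaatgtggggaactcttagtttat

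Spam1 had scaled signals of 5452, 5339.8 and 5466 in knockout and 4052, 4682 and 4801 in wild type. All knockout arrays were above all wild-type arrays and lay close together, while wild-type replicate 1 was well below the other two. The means were 5419 ± 69.2 (SD, n = 3) and 4512 ± 402.8 (SD, n = 3), and the log2 difference was 0.27 (SE 0.072, 95% interval 0.093 to 0.44, limma adjusted p = 0.11). It was 0.31 on slide 1 and 0.19 on slide 2, and 0.19 without wild-type replicate 1. Hyal5 had scaled signals of 4711, 4301 and 4239.6 in knockout and 4208, 3873 and 4489 in wild type. These overlapped, with a difference of 0.077 (SE 0.073, 95% interval -0.10 to 0.25, limma adjusted p = 0.58), which was 0.16 on slide 1 and -0.082 on slide 2. It ran from 0.022 without wild-type replicate 2 to 0.13 without wild-type replicate 3, and was 0.030 without knockout replicate 1. The response of Spam1 exceeded that of Hyal5 by 0.19 (SE 0.11), with an exact permutation p of 0.20, and ran from 0.11 to 0.28 with an array left out.

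The 2 hyaluronidase genes also share a stretch just before their start sites. Over the 250 bases before the start, taken from RefSeq (GRCm38.p6), the longest run shared by any of the 45 pairs of these 10 genes was 18 bases, in Spam1 and Hyal5, and the next was 13 bases. The 18-base run occurred in 2 of 32544 mouse promoters of 300 bases, those of these 2 genes. It begins 52 bases before the start in Spam1 and 91 bases before it in Hyal5. The last 100 bases before the start, with the shared run in capitals, are chr6:24791088-24791187 and chr6:24857897-24857996 (GRCm38.p6, plus strand):
Spam1 upstream: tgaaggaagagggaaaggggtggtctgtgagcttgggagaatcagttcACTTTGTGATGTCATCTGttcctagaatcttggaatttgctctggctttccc
Hyal5 upstream: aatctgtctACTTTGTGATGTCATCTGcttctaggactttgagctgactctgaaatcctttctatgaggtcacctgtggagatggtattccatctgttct

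Known promoter motifs were searched on both strands in the 300 bases from 250 before to 50 after each start. The full cAMP response element TGACGTCA, a site used by the spermatid activator CREM, was in 0 of the 10 promoters and in 1.8% of all promoters. Its core TGACG was in 3 (Zan, Zpbp2 and Spesp1) against 20.9% of all. The GC box GGGCGG was in 5 (B4galt1, Mfge8, Zpbp2, Spesp1 and Crisp2) against 35.9%. The TATA box letters TATAAA were in Crisp2 alone, against 13.6%. The letters GTTGCC of RFX sites was in Zp3r and Spesp1, against 12.4%. These matches are descriptions of the letters in the window, and only exact letters were searched. The run shared by Spam1 and Hyal5 holds TGATGTCA, the full element with T in place of its first C. How often such near matches occur in all promoters was not counted, and their use was not tested.

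Crisp2 encodes a cysteine-rich protein of the acrosome and the sperm tail. At chr17:40923127-40923186 (mm9) its scaled signals were 13667, 14443 and 14985 in knockout and 13463, 13738 and 17155 in wild type. Wild-type replicate 3 stood above the other 5 arrays. The log2 difference was -0.034 (95% interval -0.28 to 0.22, limma adjusted p = 0.88), with 0.047 on slide 1 and -0.20 on slide 2. Spesp1 encodes a protein of the equatorial segment, the part of the acrosome region that takes part in fusion with the egg. At chr9:62118673-62118732 (mm9) it had 12905, 12433 and 12812 in knockout and 13290, 13162 and 12923 in wild type. Its groups did not overlap, and the difference was small, -0.046 (SE 0.039, 95% interval -0.14 to 0.050, limma adjusted p = 0.54).

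**Figure D3:**
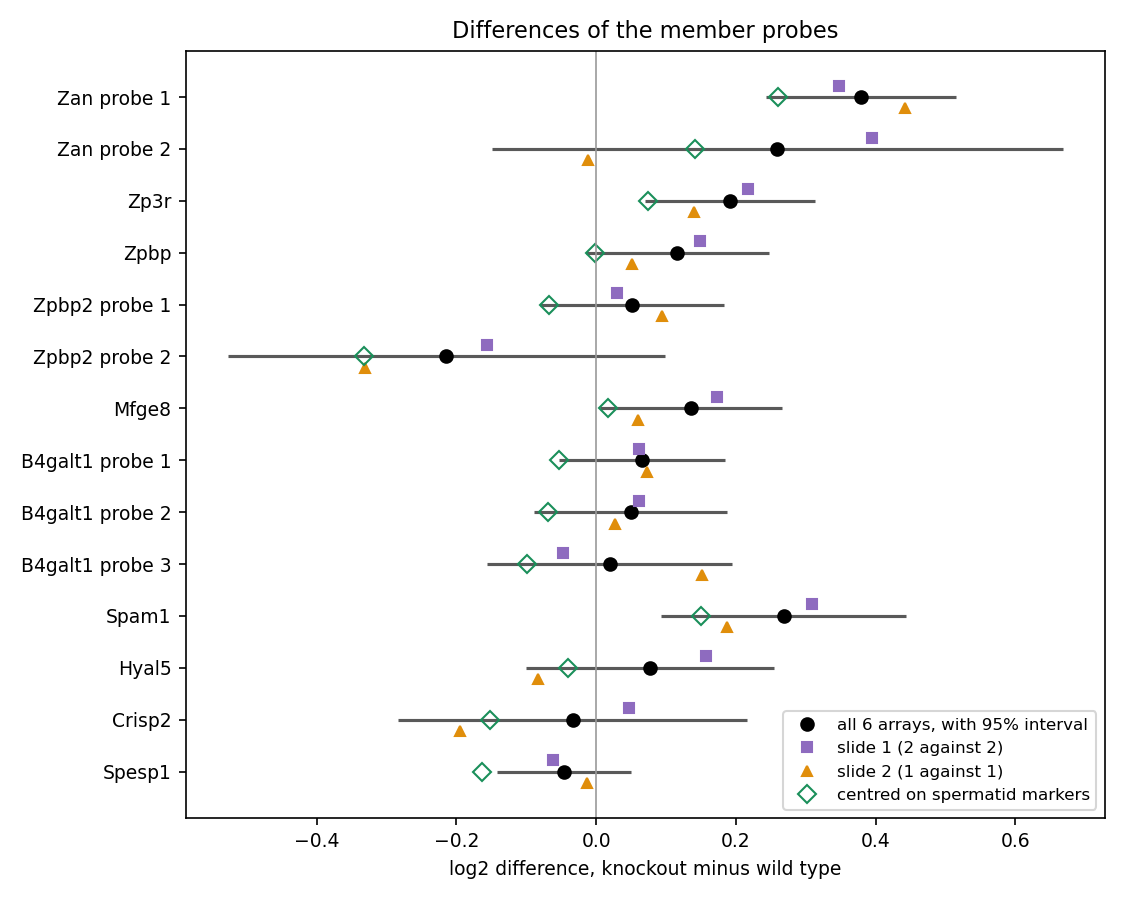
Log2 difference, knockout minus wild type, of each probe with its 95% interval (black), within slide 1 (squares, 2 arrays against 2) and slide 2 (triangles, 1 against 1), and with the arrays centred on spermatid markers (green diamonds). The intervals of Zan probe 1, Zp3r, Mfge8 and Spam1 lie above 0, and centring on spermatid markers moves every probe to the left by about 0.12.

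Over the 14 probes, 11 log2 differences were above 0 (78.6%) and the median was 0.071, where 49.3% of all tested probes were above 0 with a median of -0.0024. Knockout values lay wholly above wild-type values at 5 of the 14 (35.7%) and wholly below at 1, where 14.9% and 15.5% of all tested probes did so (30.4% in either direction). By role, 9 of 10 zona binding probes and both cumulus probes were above 0, and both probes of Crisp2 and Spesp1 were below 0. The probes of a gene share their target, and all genes share the 6 arrays, so these are counts over members and not over mice.

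Spermatid markers were mostly higher on the same arrays, and their part in the members' values was not tested. Round spermatid markers were above 0 in 7 of 8 genes and elongating spermatid markers in 7 of 8. Their median log2 differences were 0.16 and 0.090. None passed the test singly, where 1.04% of all tested probes were called. At unadjusted limma p under 0.05, 5 round and 1 elongating markers were higher and 0 lower. Of all tested probes, 11.1% were higher and 11.4% lower at that threshold. Knockout values lay wholly above wild-type values in 6 round and 1 elongating markers, and wholly below in 0. Over all tested probes these shares were 14.9% and 15.5%. The summed scaled signal of the round spermatid markers was 214950 to 220517 in knockout and 189052 to 207197 in wild type, without overlap. That of the elongating markers was 2157150 to 2407140 and 2159310 to 2301040. The mean of these 16 markers was 0.12 higher in knockout on the log2 scale, 0.15 on slide 1 and 0.054 on slide 2. The genotypes overlapped on this mean. Taken from the average of all arrays, it was 0.0206 in wild-type replicate 3 and 0.0198 in knockout replicate 1. Catsper3, a sperm calcium channel gene, had 0.25 (limma adjusted p = 0.073), and Odf1, a gene of the tail's outer dense fibres, had 0.29 (0.14).

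When each array was centred on these spermatid markers, the median of all probes moved to -0.12 and 5 of the 14 member probes stayed above 0. They were both Zan probes (0.26 and 0.14), Spam1 (0.15), Zp3r (0.074) and Mfge8 (0.017). This centring takes the same 0.118 from every log2 difference, so the probes that stayed above 0 were those that began above 0.118. It was not a test of the markers' part in any probe. Zan probe 1 then had a limma adjusted p of 0.099.

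Of 21 other sperm genes of zona interaction, 18 were above 0 with a median of 0.079. The test was passed by 0 of them and by 1.04% of all tested probes. At unadjusted limma p under 0.05, 2 were higher and 0 lower, beside 11.1% and 11.4% of all tested probes. Knockout values lay wholly above wild-type values in 8 and wholly below in 0, beside 14.9% and 15.5% of all tested probes. This list shares Acrv1, Spaca1, Izumo1 and Gapdhs with the spermatid markers. The differences of all 21 genes ran from -0.051 to 0.17, and Spaca1, an acrosomal membrane protein gene, had 0.15 (limma adjusted p = 0.16). The acrosomal protease gene Acr had 0.084, the proacrosin-binding protein gene Acrbp 0.091, and the zona binding genes Adam2 and Adam3 -0.051 and -0.019.

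Among the members' tested relatives, 6 hyaluronidase, 4 CRISP and 6 B4galt family genes, 0 were called by limma, beside 1.04% of all tested probes. At unadjusted limma p under 0.05, 1, 3 and 1 of them were higher and 0, 1 and 1 lower. Of all tested probes, 11.1% were higher and 11.4% lower at that threshold. Of 6 other hyaluronidase family genes, 2 were above 0, with Hyal3 at 0.42 (limma adjusted p = 0.081) and Hyal6 at 0.11. Hyal3 had scaled signals of 591.1, 588.7 and 605.4 in knockout and 423.7, 516.3 and 404.1 in wild type, which did not overlap. Of 10 other CRISP family genes on the array, 4 were tested. Glipr1l1, a gene for a sperm membrane protein, had 0.31 (adjusted p = 0.071), and Crispld2 had -0.32 (0.15). Of 6 other B4galt genes 3 were above 0, and B4galt5 had -0.55 (adjusted p = 0.085), with 303.6 to 357.9 in knockout and 403.9 to 551.9 in wild type. The egg coat genes Zp1 and Zp2 were not tested, since neither was well above background on every array of a group, and Zp3 had -0.16 (limma adjusted p = 0.34).

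Markers of other cells were mixed in direction within most lists, and the gene named for each is the one of smallest p and need not stand for its list. Above 0 were 3 of 5 spermatogonial, 3 of 6 spermatocyte, 4 of 7 Sertoli, 2 of 5 Leydig, 1 of 5 peritubular, 1 of 4 endothelial and 1 of 3 erythroid markers. Knockout values lay wholly above wild type in 2 of 7 Sertoli, 4 of 8 macrophage, 1 of 6 spermatocyte and 1 of 3 erythroid markers. They lay wholly below in 3 Sertoli, 2 of 5 spermatogonial, 1 spermatocyte and 1 of 5 peritubular markers. No Leydig, endothelial or epididymis marker was separated. Of all tested probes, 14.9% lay wholly above and 15.5% wholly below. Stra8 of spermatogonia had -0.42 (limma adjusted p = 0.065), Spo11 of spermatocytes -0.10 (0.21) and Rhox5 of Sertoli cells 0.26 (0.069). The Stra8 probe, at chr6:34889231-34889290 (mm9), lies nearer to the Prss37 probe at chr6:40464853-40464912 than those of Spam1 and Hyal5. A part of this position in its value was not tested. Cyp11a1 of Leydig cells had -0.25 (0.22), Acta2 of peritubular cells -0.17 (0.15), Tek, the 1 endothelial marker above 0, 0.13 (0.38) and Cd163 of macrophages 0.36 (0.079). Of the erythroid genes Alas2 rose by 0.53 (limma adjusted p = 0.043) and the list median was -0.23. Of 7 epididymis markers 6, among them Crisp1 and Crisp4, were not tested, and Lcn9 had 0.11 (0.85). Median log2 differences were 0.021 in spermatogonia, 0.0060 in spermatocytes, 0.022 in Sertoli, -0.037 in Leydig, -0.032 in peritubular and -0.026 in endothelial markers.

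**Figure D4:**
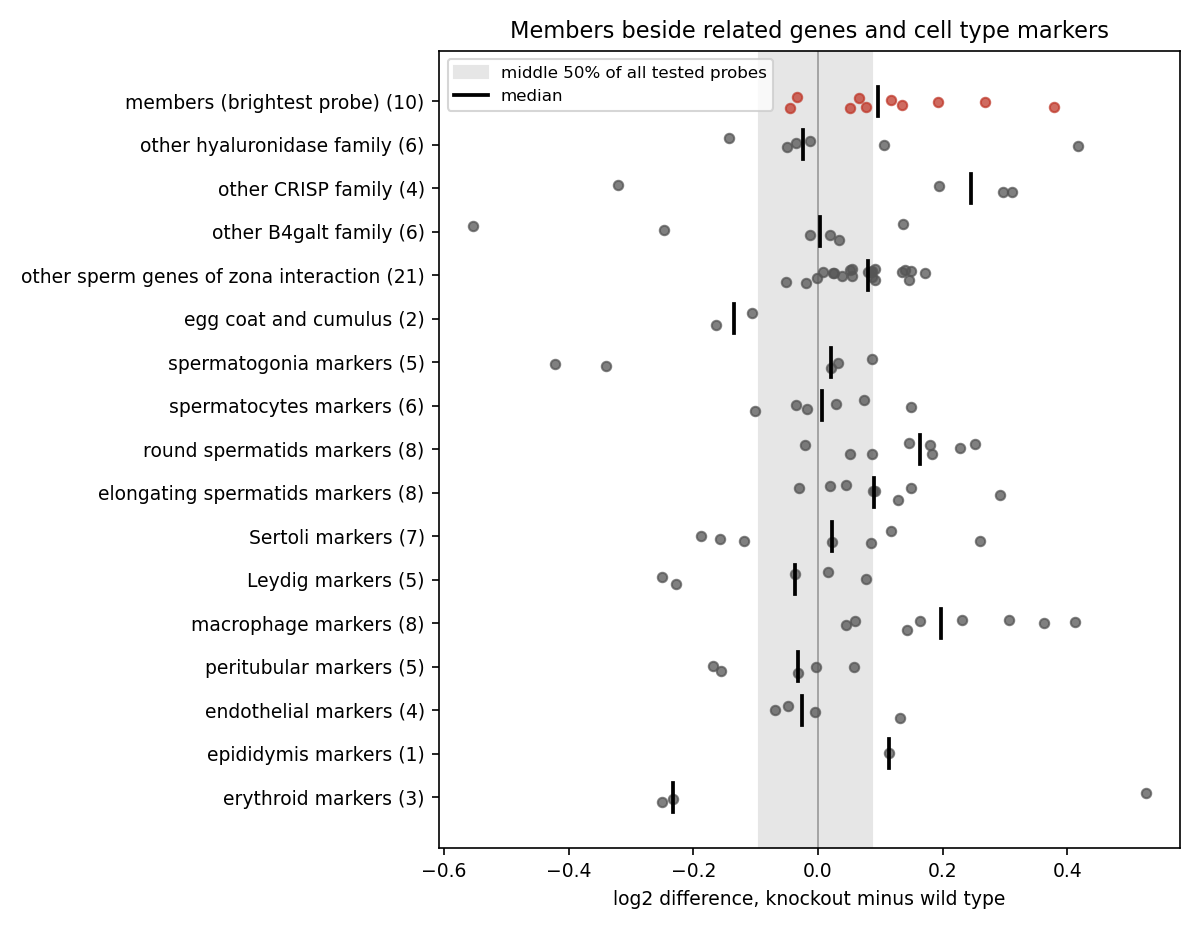
Log2 difference of each gene (points, brightest probe) for the 10 members and for related genes and cell type markers, with the number of tested genes in brackets, the median as a black bar and the middle 50% of all tested probes as a grey band. The members' median of 0.10 lies beside those of elongating spermatid markers (0.090) and other sperm genes of zona interaction (0.079), and round spermatid (0.16) and macrophage markers (0.20) lie further right.

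The genes with the array pattern most like Zan probe 1 were Etfb, an electron transfer flavoprotein gene of mitochondria, Entpd5, a nucleoside diphosphatase gene, and the cytokine gene Il11. Likeness was the root mean square gap between log2 values centred on each probe's own mean over the 6 arrays, 0.016, 0.020 and 0.022 respectively, out of 25158 probes with a gene symbol. Among the members' other probes Spam1 was closest, at 0.096, with 730 of those probes closer to Zan, and Zp3r followed at 0.11 with 1134 closer. Zan probe 2 was at 0.24, with 16329 closer. Etfb, Entpd5 and Il11 were picked for the smallest gaps over these 6 arrays, so their likeness to Zan probe 1 is given by the search. Shared regulation was not tested.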

How the data were processed

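Members and lists were chosen with earlier results of these data known. Intensity values were deposited as 1 Agilent Feature Extraction 10.7.3.1 output per array (10.7 per the submitters' processing notes). Their processed signal had background removed, per the file headers, and probe coordinates are on mm9. Flags and probe positions (other columns) were used as deposited. A log2 table was also deposited by the authors: its columns shared a median of 7.72 and correlated with the log2 processed signal of their arrays at r of 0.99987 or more, with no step stated in the sources used here.

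Control spots and outlier-flagged spots (86 to 159 per array) were left out. For each probe the log2 of the processed signal, less the 75th percentile of its array, was fitted in limma 3.58.1 (R 4.3.3; lmFit, eBayes) with Benjamini-Hochberg adjustment over all 28301 probes tested, those well above background on every array of at least 1 genotype. Each array was taken as a mouse, since the design text counts mice. Exact permutation tests compared 2 probes. The number of arrays limits the precision. Steps were tested on simulated data. For each list, called genes (at most 2) or the gene of smallest p could be named. Other genes named beside these, Hyal6, Crispld2, Acr, Acrbp, Adam2 and Adam3, were chosen after their values were seen. The promoter run was searched after the data had been seen.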

Additional observations from a re-analysis of the deposited data

How the results depend on the processing

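The 293 probes called became 493 with quantile normalization, 1444 centred on spermatid markers, 485 with the deposited table, 5 without a filter on dim probes, 566 with probes well above background on all 6 arrays, 467 with the brightest probe of each gene, 1527 with a variance trend and robust fitting, 1428 with array weights, 31 with the slide as a block, 21 on slide 1 alone, 2265 at adjusted p under 0.1, and 2 to 772 with an array left out. The count of member probes called, 1, became 0 with normexp, centring on spermatid markers, no filter, probes averaged by gene, the slide as a block and slide 1 alone, 2 with a variance trend, and 0 or 1 with an array left out. The 1 called gene of the other lists became 2 with normexp, 4 centred on spermatid markers, 7 with a variance trend, 6 with array weights, 0 without a filter, with the slide as a block and on slide 1 alone, and 0 to 3 with an array left out.

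Signs turned when centred on spermatid markers in Zpbp (-0.0018), Zpbp2 probe 1 (-0.067), Hyal5 (-0.041) and B4galt1 probes 1 to 3 (-0.053, -0.069 and -0.10), with probes averaged by gene in Zpbp2 (-0.082), with array weights in Crisp2 (0.032), and on slide 1 alone in Crisp2 (0.047) and B4galt1 probe 3 (-0.047). With an array left out Crisp2 ran from -0.10 to 0.078 and B4galt1 probe 3 from -0.028 to 0.078. The turns under spermatid centring follow from taking the same 0.118 from every difference. That of Zpbp2 follows from averaging its 2 probes of opposite sign. The cause of the other turns was not tested. With the replicate block 3 probes, 0 member probes and 0 list genes were called, and Zan probe 1 had a limma adjusted p of 0.16. Deviations of same-numbered arrays from their genotype means correlated at -0.05, -0.03 and 0.14 for replicates 1, 2 and 3. The arrays numbered 3 were the only ones on slide 2. Within slide 1, knockout replicate 1 and wild-type replicate 2 had 0.13, and knockout replicate 2 and wild-type replicate 1 had 0.12. Since replicates 1 and 2 did not deviate together by number, the numbers were not taken as pairs. The 7 differences between probes were also computed with normexp, quantile normalization, the deposited table and each array left out, chosen after seeing the data. With an array left out, signs turned for Zan probe 1 minus probe 2 (lowest -0.093), Zpbp minus Zpbp2 probe 1 (-0.0085) and the 3 B4galt1 pairs (-0.024, -0.0064 and -0.022), and normexp turned B4galt1 probe 1 minus probe 2 (-0.0053). Their exact test cannot pass 0.05 with 3 arrays against 3, so it says nothing about stability. Dim probes, Zan probe 2 and Zpbp2 probe 2, are limited by their signal over background.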
